A study of Homo sapiens with 2 samples.

Results

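The genes described here were 8 metallothionein genes (MT1A, MT1E, MT1F, MT1G, MT1H, MT1M, MT1X and MT2A), the zinc-sensing transcription factor gene MTF1 and the zinc exporter gene SLC30A1. These 10 genes were chosen by symbol out of the 53737 genes of the deposited tables, with their values in these libraries already known, so the values are described and not tested. RNA came from SK-ES-1, an established cell line of Ewing sarcoma, a tumour of bone, labelled WT for genotype. The groups were slow-cycling cells, with 1 library, and non-slow-cycling cells of the same line, with 1 library. The column headers call them LRC and non-LRC, abbreviations the labels do not explain. The sources used here do not say how the slow-cycling cells were separated. Without replicates no difference below has an error or a p-value, and each is a difference between these libraries.

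Metallothioneins are small cysteine-rich proteins that bind zinc, copper and cadmium. When free zinc rises, the zinc fingers of MTF1 fill, MTF1 enters the nucleus and binds metal response elements in front of metallothionein genes and of SLC30A1, whose product moves zinc out across the plasma membrane. Metallothionein genes are also known to respond to glucocorticoids and to low oxygen, which makes their RNA a general stress readout as well as a zinc readout.

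All 8 metallothionein genes lie in a cluster of 75.6 kb on chromosome 16 (56608584 to 56684196, GRCh38), each as its own short gene of 914 to 1727 bases. MTF1 lies on chromosome 1 (37809574 to 37859592) and SLC30A1 on the same chromosome (211571568 to 211579161). RefSeq promoter sequence was matched for 5 of the 10 genes: MT2A, MT1X, MT1H, SLC30A1 and MTF1. The 250 bases before the annotated start were searched on both strands for the core of the metal response element, spelled TGCACNC or TGCGCNC. Of the 35116 promoters of the same length in the table, 24.8% held at least 1 match and 0.370% held 4 or more. The windows of 4 genes are printed 5′ to 3′ on the strand of the gene, with every match in capitals (reverse-strand matches read as GNGTGCA or GNGCGCA), to show how the cores lie in metallothionein genes that were measured above 0 (MT2A, MT1X), in 1 that is listed at 0 (MT1H), and in the exporter gene.
MT2A (GRCh38.p14, chr16:56608334-56608583, + strand): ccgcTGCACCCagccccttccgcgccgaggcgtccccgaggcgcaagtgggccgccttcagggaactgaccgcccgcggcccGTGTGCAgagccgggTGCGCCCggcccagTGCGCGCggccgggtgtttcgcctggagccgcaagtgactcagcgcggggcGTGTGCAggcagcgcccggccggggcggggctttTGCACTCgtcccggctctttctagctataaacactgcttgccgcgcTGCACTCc
MT1X (GRCh38.p14, chr16:56682220-56682469, + strand): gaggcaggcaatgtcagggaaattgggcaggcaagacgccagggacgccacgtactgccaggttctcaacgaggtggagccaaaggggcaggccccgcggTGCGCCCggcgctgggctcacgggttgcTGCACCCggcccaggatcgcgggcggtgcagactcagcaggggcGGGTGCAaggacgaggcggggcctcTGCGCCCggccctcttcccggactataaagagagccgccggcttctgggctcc
MT1H (GRCh38.p14, chr16:56669564-56669813, + strand): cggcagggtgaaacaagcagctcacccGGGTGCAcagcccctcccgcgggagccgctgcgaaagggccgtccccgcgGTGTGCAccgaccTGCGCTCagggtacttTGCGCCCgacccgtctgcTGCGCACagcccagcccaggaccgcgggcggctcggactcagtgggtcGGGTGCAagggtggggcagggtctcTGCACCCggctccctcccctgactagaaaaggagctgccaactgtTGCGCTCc
SLC30A1 (GRCh38.p14, chr1:211579162-211579411, - strand): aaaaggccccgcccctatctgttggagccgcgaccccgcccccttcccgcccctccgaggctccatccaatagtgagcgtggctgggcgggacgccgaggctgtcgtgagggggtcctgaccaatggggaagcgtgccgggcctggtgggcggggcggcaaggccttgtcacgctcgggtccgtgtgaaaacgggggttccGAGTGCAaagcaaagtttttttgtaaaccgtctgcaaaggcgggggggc

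The MT1H window held 8 matches, the MT2A window 7, the MT1X window 4 and the SLC30A1 window 1, none of them overlapping another. A core on the gene strand ended 48 bases before the start in MT2A and 47 bases before it in MT1X and MT1H, and a core on the other strand began 78 bases before the start in both MT1X and MT1H. The MTF1 window held no match. A match is a run of letters and does not show that MTF1 was bound there.

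**Figure D1:**
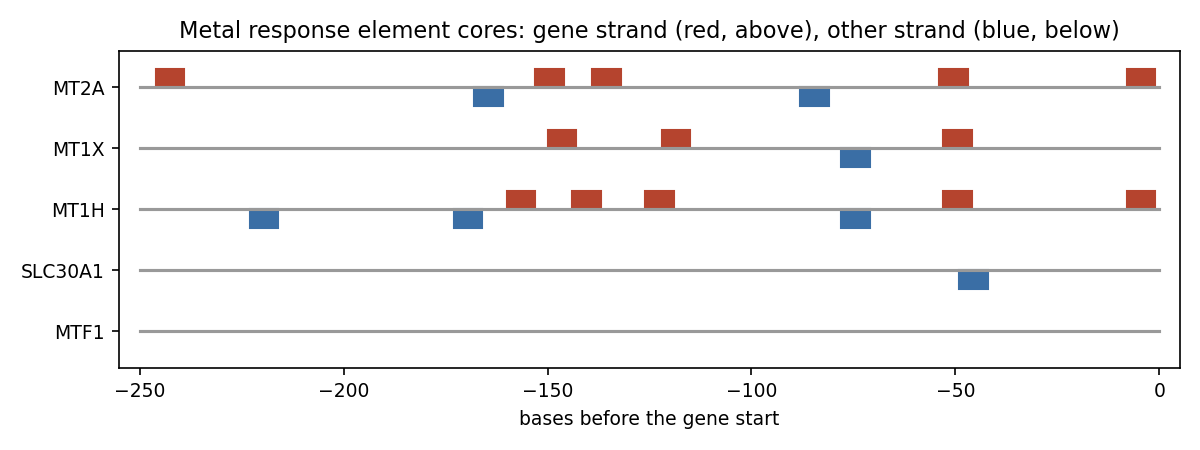
Positions of the metal response element core (TGCACNC or TGCGCNC) in the 250 bases before the start of 5 genes, in bases before the start, with red boxes above the line for the strand of the gene and blue boxes below it for the other strand. MT1H has 8 boxes, MT2A 7, MT1X 4, SLC30A1 1 and MTF1 none.

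Of the 8 metallothionein genes, 4 were measured above 0, and each of these was higher in the slow-cycling library. Levels are in per-million units, obtained by undoing the log2 of the deposited values, and whether they were divided by transcript length is not stated, so they are compared here between libraries and not ranked between genes. Differences are log2(level + 1) in slow-cycling minus non-slow-cycling cells, which understates the difference of low genes. A gene was tested, that is, counted, when it reached 1 unit in at least 1 library, which 6 of the 10 did, among 13444 genes of the series.

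MT1F, an isoform gene of the MT1 group, was at 14.7 units in slow-cycling cells, against 5.25 units in non-slow-cycling cells. Its log2 difference was 1.33, a linear ratio of 2.81, at rank 116 of the 13444 tested genes counted from the highest. MT1G, another MT1 isoform gene, was at 3.65 units in slow-cycling cells, against 0.571 units in non-slow-cycling cells. Its log2 difference was 1.57 at rank 58. MT1G met the minimum level through the slow-cycling library alone, and its difference was 2.48 with a pseudocount of 0.1.

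MT2A, the metallothionein gene with the broadest known expression among human tissues, was at 29.8 units in slow-cycling cells, against 21.7 units in non-slow-cycling cells. The log2 difference of 0.44, a linear ratio of 1.37, stood at rank 1112. MT1X was at 39.1 units in slow-cycling cells, against 32.0 units in non-slow-cycling cells, a log2 difference of 0.28, a linear ratio of 1.22, at rank 2128. MT2A and MT1X thus differed less on the log2 scale than MT1F and MT1G. The order of the log2 differences was MT1G, MT1F, MT2A and MT1X, and without replicates it cannot be said which neighbours in that order differ beyond error.

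MT1A, MT1E, MT1H and MT1M were listed at 0 in both libraries. So were 11 of the 12 other genes looked up, all of them metallothionein genes or pseudogenes, among them MT3, known as the brain isoform gene, and MT4, known from squamous epithelium. The twelfth, TESMIN, a testis gene once named as metallothionein-like that lies outside the cluster, was at 4.83 units in slow-cycling cells, against 4.78 units in non-slow-cycling cells. An exact 0 in these tables need not mean absent RNA. The mitochondrial genome's 13 protein-coding genes, needed by every cell, also stand at 0 in each library. Why those stand at 0 is not stated, and whether the same holds for the metallothionein genes cannot be told.

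MTF1, the transcription factor that reads zinc, was at 9.01 units in slow-cycling cells, against 8.51 units in non-slow-cycling cells, a log2 difference of 0.07 at rank 5722. SLC30A1, the exporter under MTF1 control, was at 6.66 units in slow-cycling cells, against 5.59 units in non-slow-cycling cells, a log2 difference of 0.22 at rank 2935. Both lay well within 1.5-fold. RNA levels do not report MTF1 activity, which depends on zinc binding and nuclear entry.

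**Figure D2:**
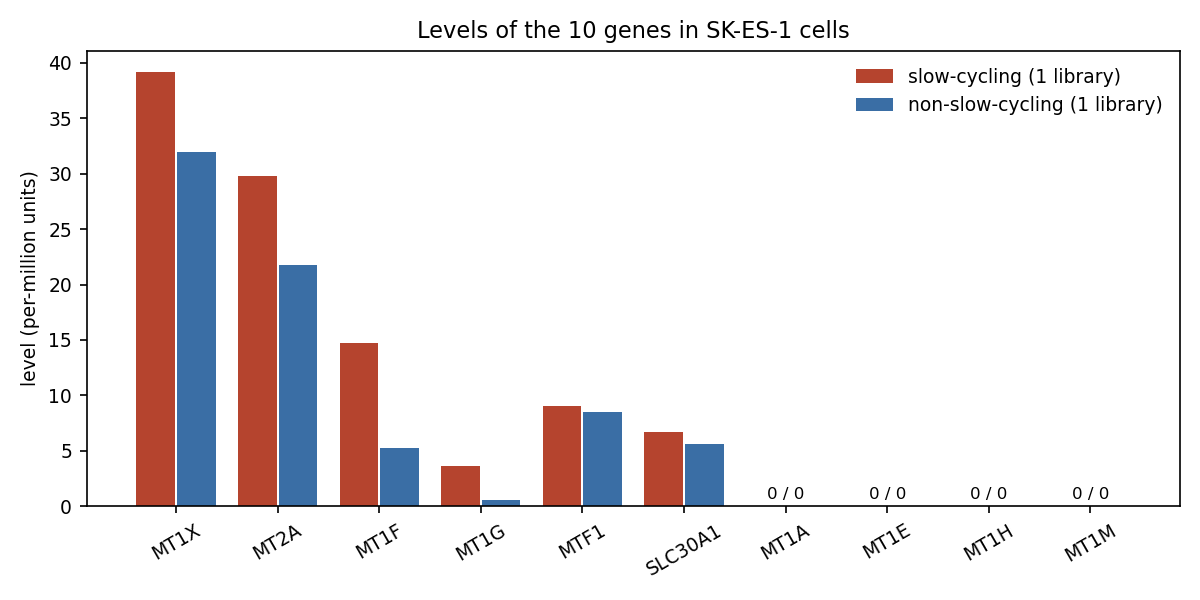
Level of each of the 10 genes in per-million units in the slow-cycling library (red, left bar) and the non-slow-cycling library (blue, right bar), 1 library each, so there are no error bars. MT1F (14.7 and 5.25) and MT1G (3.65 and 0.571) show the widest relative gaps, and a zero pair marks the 4 genes at 0.

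Among the 6 tested genes, MT1F and MT1G (2 genes) were higher in slow-cycling cells by 1.5-fold or more, and 0 were lower by as much. Over all tested genes 5.38% reached that size upwards and 1.41% downwards. Since the genes were chosen with this contrast known, nothing is read from their count, their median or their place against that background. The median log2 difference was 0.36 over the 6 tested genes and 0.03 over all tested genes. Low genes spread more widely in these libraries. Among the 1786 genes with a mean level of 1 to 4 units, where MT1G lies, 17.9% were at least 1.5-fold higher in slow-cycling cells, with a median of 0.18. Among the 3588 genes at 4 to 16 units, where MT1F lies, 5.04% were, with a median of 0.10. Among the 5045 genes at 16 to 64 units, where MT2A and MT1X lie, 0.714% were, with a median of 0.02. In that last class the differences ran from -0.20 at the 10th percentile to 0.24 at the 90th, and both MT2A and MT1X lay above the 90th. Read depth was unknown, so no counting interval could be given for any of these levels.

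**Figure D3:**
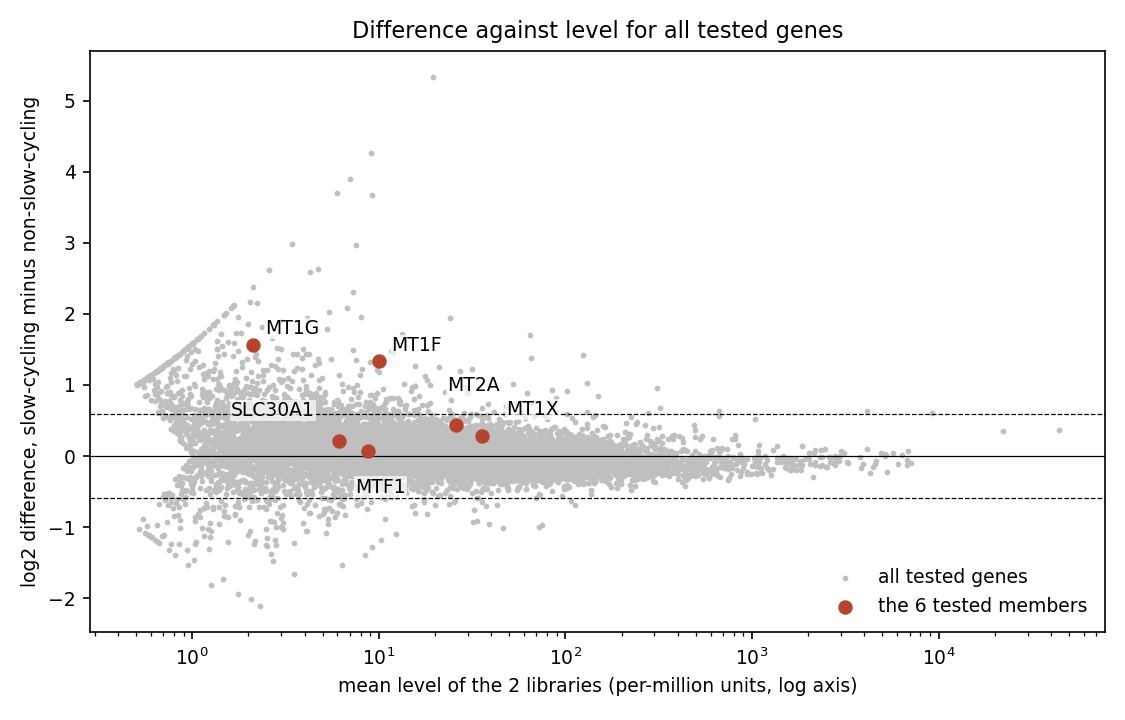
Log2 difference, slow-cycling minus non-slow-cycling, against the mean level of both libraries (per-million units, log axis) for the 13444 tested genes (grey) and the 6 tested genes described here (red), with dashed lines at 1.5-fold. MT1G (1.57) and MT1F (1.33) lie above the upper dashed line, at levels where the grey cloud is wider than at the levels of MT2A (0.44) and MT1X (0.28).

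Summed over the 8 metallothionein genes, the level was 87.4 units in slow-cycling cells, against 59.5 units in non-slow-cycling cells, a log2 difference of 0.55 and a linear ratio of 1.47. The weight of each gene in such a sum depends on the unknown length scaling, so no shares are given. The summed level of MT1X and MT2A alone was 69.0 units in slow-cycling cells, against 53.7 units in non-slow-cycling cells.

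Metallothionein transcripts resemble each other, so the split of reads among them is uncertain, while their sum is less affected. In the GENCODE 29 transcripts, 16.5% of the different 50-base stretches of the MT1G coding transcripts also occurred in another metallothionein gene or pseudogene, most often MT1H. The share was 7.63% for MT1X, 3.27% for MT1F and 2.22% for MT2A. Of 100-base stretches, MT1G, MT1X, MT1F and MT2A shared 0. The sources used here give neither the read length nor the handling of reads with several matches.

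The genes around the cluster were set beside it. Within 500 kb on either side lay 12 protein-coding genes that are not metallothioneins, of which 8 were tested and 4 were listed at 0 in both libraries. Their median log2 difference was 0.06, and 1 of the 8 was at least 1.5-fold higher in slow-cycling cells, against 5.38% of all tested genes. That gene was HERPUD1, which encodes a membrane protein of the endoplasmic reticulum induced by unfolded protein stress, at 34.7 units in slow-cycling cells, against 22.4 units in non-slow-cycling cells. CPNE2 had a log2 difference of 0.23 and OGFOD1, a prolyl hydroxylase of a ribosomal protein, of -0.14. The nearest tested neighbours on each side, BBS2 (0.10) and NUP93 (-0.01), lay within 0.1 of 0. Along the cluster, MT1E, MT1M and MT1A, all at 0, lie between MT2A and MT1F, and MT1H, also at 0, lies between MT1G and MT1X.

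**Figure D4:**
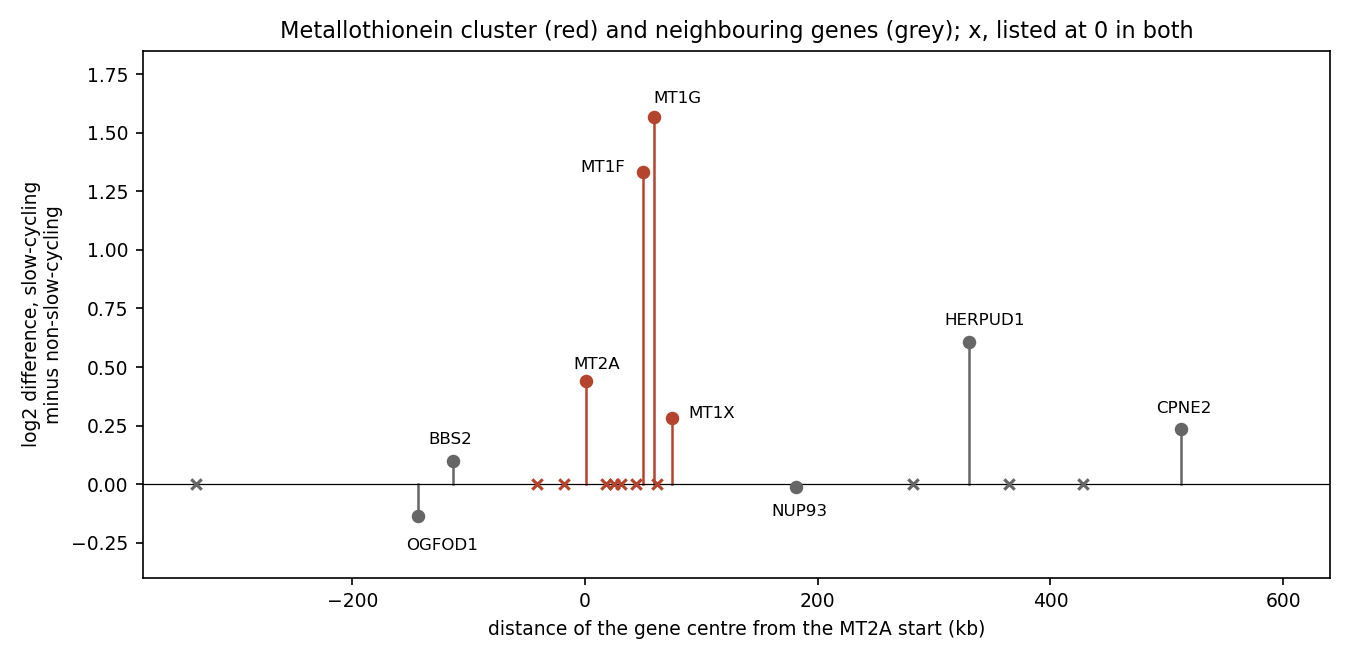
Log2 difference, slow-cycling minus non-slow-cycling, of the metallothionein genes (red) and of neighbouring protein-coding genes within 500 kb of the cluster (grey; the tested neighbours drawn are the 5 named in the text), against the distance of each gene's centre from the MT2A start in kb, with crosses for genes listed at 0 in both libraries. MT1F (1.33) and MT1G (1.57) stand higher than MT2A (0.44) and MT1X (0.28) within the same cluster, and HERPUD1 (0.61) is the highest of the neighbours drawn.

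Zinc transporter genes had small median log2 differences. The SLC30 list holds exporters, which lower cytosolic zinc, SLC30A1 among them, and the zinc transporter gene TMEM163. Of its 11 genes 7 were tested, and the median log2 difference was 0.02. At least 1.5-fold higher were 0 and lower 0, against 5.38% and 1.41% of all tested genes. SLC30A4, a vesicular exporter, was at 2.0 units in slow-cycling cells, against 1.58 units in non-slow-cycling cells, a difference of 0.22. SLC30A7, which loads zinc into the Golgi apparatus, differed by 0.15 and SLC30A5, of the early secretory pathway, by -0.02. Of the 14 SLC39 genes, importers that raise cytosolic zinc, 11 were tested, again with 0 at least 1.5-fold higher and 0 lower, and the median was 0.01. At the shares over all tested genes, lists this short can hold 0 such genes by their size alone. SLC39A11 was at 4.25 units in slow-cycling cells, against 3.09 units in non-slow-cycling cells, a difference of 0.36. SLC39A10, an importer of the plasma membrane whose gene MTF1 is known to repress in mouse cells, differed by 0.20, as did SLC39A13, and SLC39A8 by 0.17.

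Of 10 other genes reported as MTF1 targets, 8 were tested, with 4 above 0 and 4 below, and the median log2 difference was 0.04. NDRG1, which is also a well known hypoxia gene, was the 1 member of the 8 at least 1.5-fold higher, against 5.38% of all tested genes. It was at 8.10 units in slow-cycling cells, against 4.51 units in non-slow-cycling cells. The selenoprotein gene SELENOW was at 71.8 units in slow-cycling cells, against 86.0 units in non-slow-cycling cells, and the placental growth factor gene PGF at 44.2 units in slow-cycling cells, against 52.4 units in non-slow-cycling cells. FTH1, the ferritin heavy chain gene, differed by 0.15. The copper handling list had 13 tested members, 8 of them below 0, with a median of -0.06. Past 1.5-fold were 0 in either direction, against 5.38% of all tested genes upwards and 1.41% downwards. It also counts MTF2 (0.13), a Polycomb gene and not a copper handling gene, and without MTF2 the median would be lower. ATP7B, a copper exporter, differed by -0.35, SLC31A2, a copper transporter, by -0.28, COX11, a copper chaperone of cytochrome oxidase, by -0.24, and COX19, also of cytochrome oxidase assembly, by 0.25. Iron handling genes had 15 tested members, a median of 0.07 and 0 past 1.5-fold in either direction, against the same shares. At those shares, lists this short can hold 0 such genes by their size alone. FLVCR1, long described as a heme exporter gene, was at 0.31, and the mitochondrial iron importer genes SLC25A37 at 0.15 and SLC25A28 at -0.14.

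The stress genes that cadmium and other heavy metals induce along with metallothioneins had 10 tested members out of 14, with a median log2 difference of 0.08. Past 1.5-fold were 0 in either direction, against 5.38% of all tested genes upwards and 1.41% downwards. A list this short can hold 0 such genes at those shares by its size alone. The cystine transporter gene SLC7A11 was at 11.6 units in slow-cycling cells, against 9.01 units in non-slow-cycling cells, a difference of 0.34. The heat shock gene HSPA1B, nearly identical to HSPA1A and so uncertain, differed by 0.23, HSPH1, another heat shock gene, by -0.29, and NQO1, a quinone reductase gene of the NRF2 response, by -0.27.

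The glucocorticoid receptor is a factor that also acts on metallothionein genes. The list of its targets had 12 genes, and it also counts NR3C1, the gene of the receptor itself. Of these, 10 were tested and 9 were above 0, a direction that 56.2% of all tested genes had. At least 1.5-fold higher were 5 and lower 0, against 5.38% and 1.41% of all tested genes, and 17.9% higher in the low class of 1 to 4 units in which KLF9 and NR3C1, 2 of the 5, lie, and the median log2 difference was 0.54. With a minimum level of 5 units 3 were higher by as much, and with the median log2 ratio of tested genes set to 0, 4 were. NR3C1 was at 3.35 units in slow-cycling cells, against 1.88 units in non-slow-cycling cells, a difference of 0.60, close to the 1.5-fold line. TSC22D3, a classical glucocorticoid-induced gene, was at 22.7 units in slow-cycling cells, against 13.4 units in non-slow-cycling cells. DUSP1, a phosphatase that is also an immediate early gene, was at 62.1 units in slow-cycling cells, against 38.2 units in non-slow-cycling cells. KLF9, a transcription factor gene, was at 3.38 units in slow-cycling cells, against 1.55 units in non-slow-cycling cells, and the cell cycle inhibitor CDKN1C at 6.29 units in slow-cycling cells, against 3.24 units in non-slow-cycling cells. FKBP5, another classical target, was the 1 tested member below 0, at -0.33. Several of these genes respond to other stimuli, and glucocorticoid exposure of the cells is not described in the labels.

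**Figure D5:**
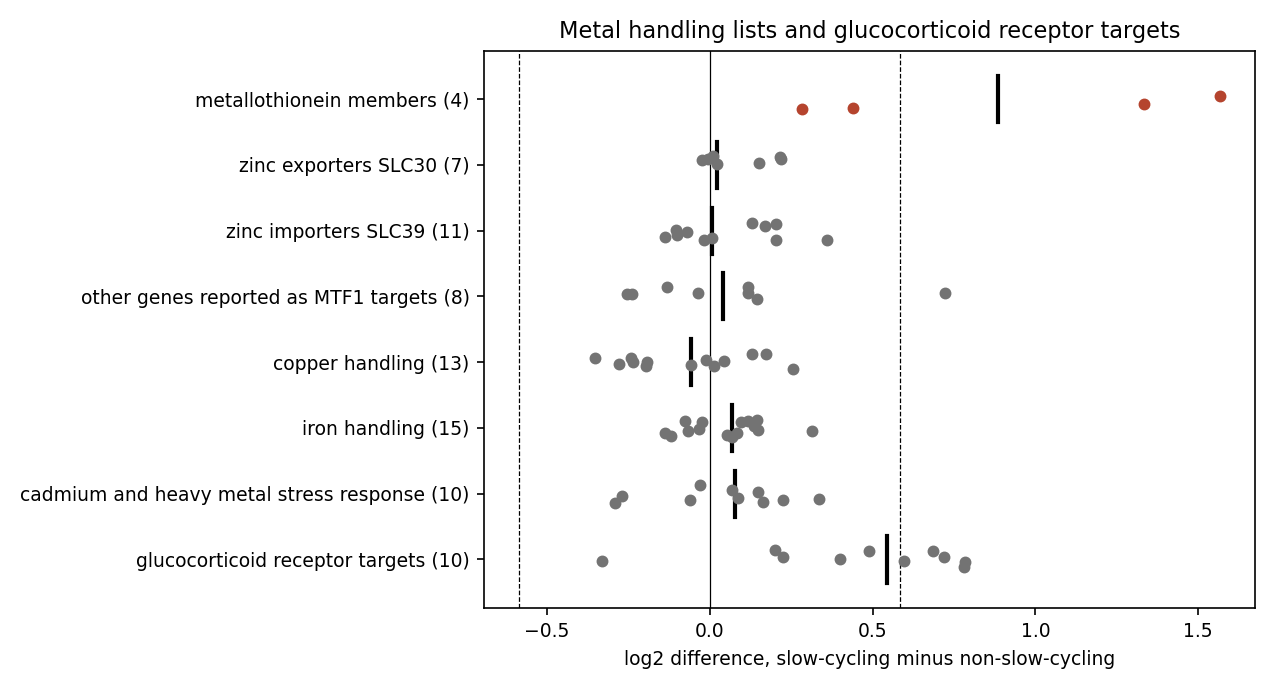
Log2 difference, slow-cycling minus non-slow-cycling, of every tested gene (points, spread vertically for legibility) of 8 lists, with the number tested in brackets, the list median as a black bar and dashed lines at 1.5-fold. The metal transport and heavy metal stress lists have medians between -0.06 and 0.08, with MTF2 counted in the copper handling list. The 4 metallothionein genes (red) and the glucocorticoid receptor targets (median 0.54, with the receptor gene NR3C1 counted) lie mostly to the right.

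The 3 protein-coding genes outside these lists whose log2 difference was nearest to that of MT2A, among 4793 with a mean level within 2-fold of it, were ACAP2, UNCX and BTG1, each at 0.44. With 1 library per group, likeness here means only a similar difference at a similar level.

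The 12 genes looked up as known markers or drivers of Ewing sarcoma were each at 10.7 units or more in each library. No other line was there to compare, so these levels do not check the label of the line. Of these 12 genes 7 were above 0, against 56.2% of all tested genes, and 5 below, with a median log2 difference of 0.02. Among those below 0, the surface protein gene CD99 was at 213 units in slow-cycling cells, against 245 units in non-slow-cycling cells. NKX2-2, a fusion target also below 0, was at 99.3 units in slow-cycling cells, against 111 units in non-slow-cycling cells. Of 11 fibroblast and pericyte markers 8 were tested, all above 0 against 56.2% of all tested genes, with a median of 0.35 against 0.03. Their summed level was 291 units in slow-cycling cells, against 261 units in non-slow-cycling cells. At least 1.5-fold higher were 2, against 5.38% of all tested genes. Those 2 lay in the low class of 1 to 4 units, where 17.9% were. With a minimum of 5 units 0 were, and the median was 0.24. PDGFRA was listed at 0 in both libraries. Of 10 leukocyte markers 3 were tested, also above 0, 2 of them in the low class whose median was 0.18, with a summed level of 15.5 units in slow-cycling cells, against 9.66 units in non-slow-cycling cells, while PTPRC, CD3D and CD3E were listed at 0. All 6 endothelial markers were listed at 0. Of 6 epithelial markers 3 were listed at 0 and 3 were tested, with 2 above 0, 1 below and a median of 0.10. The summed level of these 6 epithelial markers was 20.2 units in slow-cycling cells, against 21.2 units in non-slow-cycling cells. The summed fibroblast and leukocyte marker levels were thus higher in the same library as the metallothioneins, and their part in the metallothionein result was not tested. In bulk RNA, more cells that carry metallothionein RNA and more of it per cell cannot be told apart.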

How the data were processed

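SK-ES-1 RNA from slow-cycling cells and from non-slow-cycling cells, 1 library each, was prepared with a phenol-based reagent and a stranded kit that selects polyadenylated RNA, per the labels' protocols. Per the submitters' processing notes, hg38 was the genome build used. The sources used here name no aligner, counter or annotation. The deposited values are called normalized per the file headers and were taken to be log2 values of a per-million level plus 1: after back-transformation they summed to 983638 in slow-cycling and 984120 in non-slow-cycling cells. That scale is inferred. They keep no counts, so depth is unknown.

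The 53826 lines were summed by Entrez gene ID to 53737 genes (174 lines carried a locus suffix). Classes and coordinates came from RefSeq (GRCh38.p14), which matched 51252 IDs and left 2485 unmatched. Genes with at least 1 unit in at least 1 library were counted, with a pseudocount of 1 and a threshold of 1.5-fold. No test was possible with 1 library per group. The counting step was checked on simulated data without noise, with large changes placed in well-expressed genes. That checks the arithmetic alone and not the error of low genes or of single libraries. Genes named are the 10 themselves and, of each metal, glucocorticoid or neighbour list, up to 4 with the largest absolute difference, while marker lists are given by counts. An item these rules name is not reported here. BBS2, NUP93, FKBP5, NR3C1, MTF2, CD99, NKX2-2, PDGFRA, PTPRC, CD3D, CD3E, MT3 and MT4 were singled out after their values were seen. The members and lists were chosen with earlier results of these data known. Alternatives were 2 scalings, no filter, a minimum of 5 units, a pseudocount of 0.1, protein-coding genes alone, and thresholds of 2-fold and of a ratio 25% away from 1. Python 3.11.15, pandas 2.3.3 and numpy 2.4.6 were used.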

Additional observations from a re-analysis of the deposited data

How the results depend on the processing

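The direction of each of the 6 tested genes was the same in every alternative that gave a value, and none crossed the 1.5-fold line. The log2 difference ranged from 1.30 to 1.47 for MT1F, from 1.53 to 2.48 for MT1G, from 0.25 to 0.29 for MT1X, from 0.41 to 0.46 for MT2A, from 0.04 to 0.08 for MTF1 and from 0.19 to 0.25 for SLC30A1, and from 0.51 to 0.55 for the metallothionein sum. With a minimum of 5 units MT1G was no longer counted, which left 1 of the genes at least 1.5-fold higher. Over all genes, the 723 higher and 189 lower became 255 and 70 with that minimum, 255 and 58 at 2-fold and 1821 and 671 at a threshold ratio 25% away from 1. The number lower was 311 with a pseudocount of 0.1 and 71 among protein-coding genes alone. The fibroblast and pericyte median was 0.24 with the minimum of 5 units, and the leukocyte median 0.90 with a pseudocount of 0.1. At 2-fold 0 glucocorticoid receptor targets were higher. No paired analysis was possible because each group has 1 library, and for the same reason no library could be left out. Depth is unknown, so the precision of low values such as that of MT1G in non-slow-cycling cells cannot be given.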
